A study of Rattus norvegicus with 15 samples.

Results

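The 9 genes that mark T, B and NK lymphocytes followed here in rat liver were the T cell genes Cd3d, Cd3e, Cd4 and Cd8a, the B cell genes Ms4a1, Cd79a and Cd79b, and the cytotoxic genes Nkg7 and Gzmb. They were the rows of the deposited table of counts whose gene symbol equals one of these names, 9 of 32623 genes. Of these, 8 were among the 14417 genes that passed the filter on low counts and were tested, and Ms4a1 did not pass it. Poly(A) RNA of whole liver was sequenced from 15 male Wistar rats, of which 14 were analysed here. They came from a larger cohort and were not a random sample of it, since rats were picked for sequencing where CCl4 had produced cirrhosis or eplerenone had shown its effect. Control rats (4, replicates 2 to 5) were untreated, and control replicate 1 was not analysed here. Cirrhosis rats (5) inhaled carbon tetrachloride (CCl4), which injures hepatocytes, for 12 weeks with phenobarbital (0.35 g/L) in the drinking water. Cirrhosis & eplerenone rats (5) received the same and, from week 8 to week 12, eplerenone, a blocker of the mineralocorticoid receptor, at 100 mg/kg body weight in hazelnut spread. CCl4-treated rats were examined 7 to 10 days after the last CCl4, and the age of the rats is not given in the sources used here.

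T cells recognise antigen through a receptor whose signal is passed on by the CD3 chains, among them those of Cd3d and Cd3e. The coreceptors encoded by Cd4 and Cd8a divide T cells into helper and cytotoxic cells, but in the rat Cd4 is also made by macrophages, which include the Kupffer cells of the liver, and Cd8a by NK cells. B cells carry the antigen receptor chains of Cd79a and Cd79b and the membrane protein CD20 of Ms4a1. NK cells and cytotoxic T cells hold granules with the protease granzyme B (Gzmb) and the granule membrane protein of Nkg7, and the healthy liver is rich in NK cells.

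Levels are given in FPM, counts scaled to a library of 1000000 after TMM, and they are compared between rats for 1 gene at a time because gene length was not corrected for. Between 16157491 and 21574767 reads per library were counted on genes. A count of 3, taken as the smallest amount that a library can show, stood for 0.121 to 0.191 FPM, which covers counting error only. A gene was called when its FDR was below 0.05 in both edgeR and DESeq2, fitted over the 3 groups. Log2 fold changes (log2FC), standard errors and adjusted p-values are those of edgeR (quasi-likelihood test, Benjamini-Hochberg adjustment over all genes tested). The samples are different rats. In whole tissue, a change in the number of a cell type and a change of RNA per cell cannot be told apart. The albumin gene Alb, which marks hepatocytes, lay between 56100 and 130600 FPM, while Cd3d, Cd3e, Ms4a1 and Gzmb lay near the limit of detection in some or all groups. Cirrhosis replicate 5 stood apart from the other cirrhosis rats, with 122800 FPM of Alb against 56100 to 86210 FPM.

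In cirrhosis, Cd3d, Cd3e and Nkg7 were higher than in control and were called, while the other 5 genes tested were not. These are 3 of 8 genes (37.5%), against 13.4% of all genes tested that were called higher and 6.67% called lower in the same comparison, where no marker was called. All 3 remained called without cirrhosis replicate 5, and Cd3e alone without control replicate 3 or control replicate 5. The median log2FC of the 8 genes was 0.92 and that of all genes tested -0.01. With eplerenone no marker was called against cirrhosis, a comparison in which 0.0139% of all genes tested were called in either direction. No marker was called between cirrhosis & eplerenone and control either, where 4.33% of all genes tested were called higher and 0.874% lower.

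**Figure D1:**
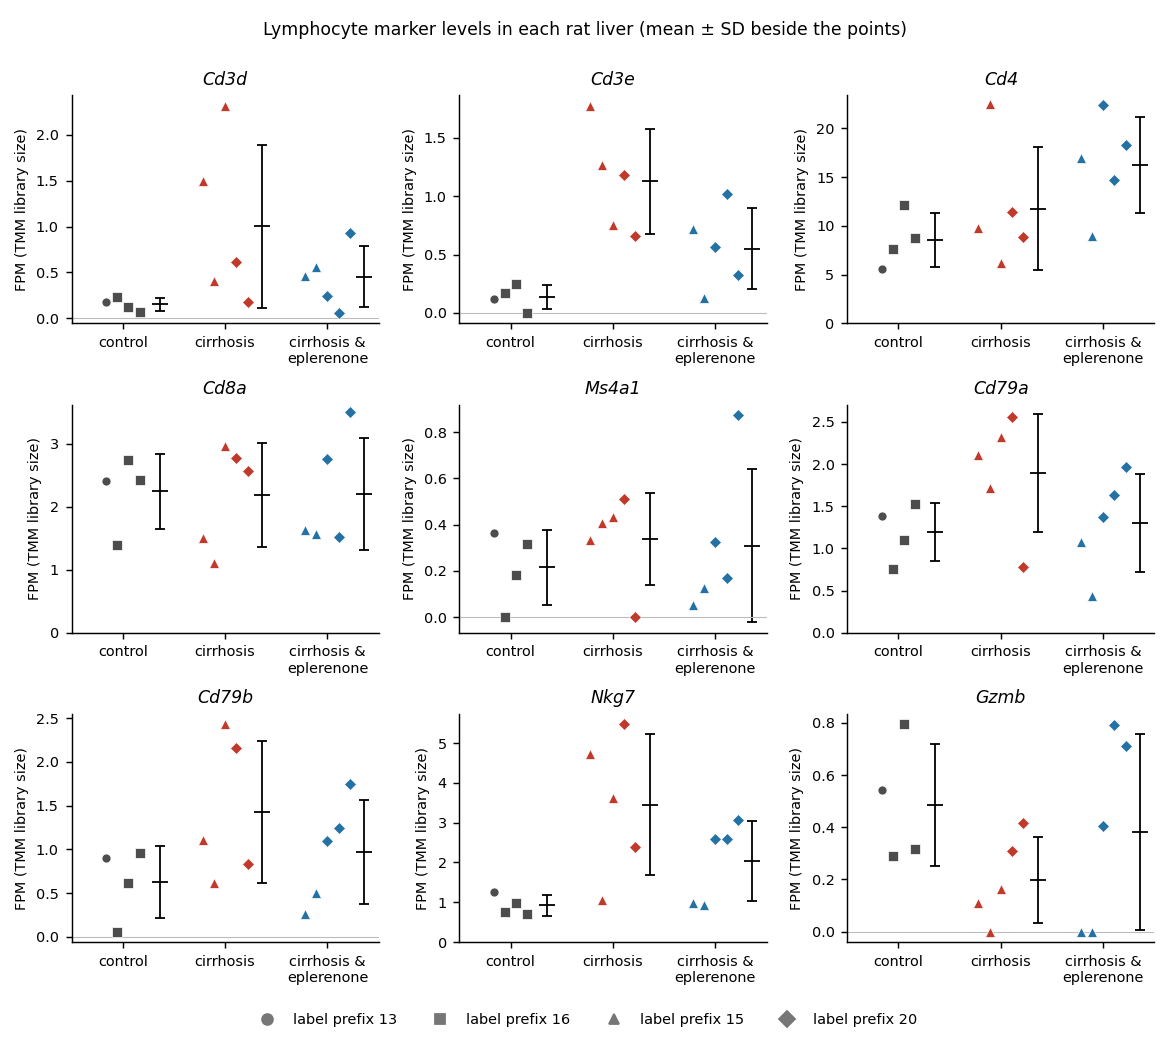
Level of each of the 9 lymphocyte markers (FPM over TMM library sizes, linear axes) in 4 control, 5 cirrhosis and 5 cirrhosis & eplerenone rats. Each point is 1 rat, its shape the prefix of the animal label, and the bar beside the points the mean ± SD. Every cirrhosis rat lies above every control for Cd3e (0.655 to 1.77 against 0 to 0.244 FPM), as for 11.2% of all genes tested. For Gzmb, chosen after its values were seen, rats of label prefix 15 lie below those of prefix 20.

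The genes of the T cell receptor complex rose most among the markers. Both lie on chromosome 8 (Cd3d, ENSRNOG00000015994; Cd3e, ENSRNOG00000016069). Their promoters, from 250 bases before to 50 after the start of the gene, are shown because these genes carried the largest rise, and capitals mark GGAAGT or its reverse complement ACTTCC, letters that factors of the ETS family bind. The sequences are those of RefSeq for the build GRCr8, 5′ to 3′ on the strand of the gene, at chr8:54185269-54185568 (plus strand) for Cd3d and chr8:54211721-54212020 (minus strand) for Cd3e.
Cd3d: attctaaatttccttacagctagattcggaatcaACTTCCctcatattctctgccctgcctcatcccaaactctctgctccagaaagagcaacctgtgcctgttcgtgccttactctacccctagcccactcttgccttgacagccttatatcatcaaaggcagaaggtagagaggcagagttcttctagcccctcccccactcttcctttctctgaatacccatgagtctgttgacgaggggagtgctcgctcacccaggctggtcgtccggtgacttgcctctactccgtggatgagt
Cd3e: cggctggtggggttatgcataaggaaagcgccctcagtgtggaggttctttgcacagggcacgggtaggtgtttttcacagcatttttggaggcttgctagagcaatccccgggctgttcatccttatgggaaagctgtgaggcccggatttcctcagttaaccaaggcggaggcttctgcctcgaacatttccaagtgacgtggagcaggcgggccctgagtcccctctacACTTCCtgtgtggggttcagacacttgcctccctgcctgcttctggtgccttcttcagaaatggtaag
The letters began 216 bases before the start in Cd3d and 18 bases before it in Cd3e. They were chosen after the sequences were seen, they occur in 22.6% of 33469 RefSeq promoters of this length, and a match is a description of the letters only.

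Cd3d had 0.181, 0.231, 0.122 and 0.0636 FPM in control replicates 2 to 5. In cirrhosis replicates 1 to 5 it had 1.5, 0.408, 2.32, 0.615 and 0.178 FPM. Replicates 1 and 3 were highest, and replicate 5 lay within the range of control, so the groups overlapped. With eplerenone the 5 rats had 0.460, 0.563, 0.243, 0.0564 and 0.929 FPM, a range that overlapped with both other groups. Mean levels of Cd3d were 0.150 ± 0.0726 FPM (SD, n = 4), 1.00 ± 0.889 FPM (SD, n = 5) and 0.450 ± 0.332 FPM (SD, n = 5) in control, cirrhosis and cirrhosis & eplerenone. Cirrhosis against control gave a log2FC of 2.68 (standard error 0.85, adjusted p = 0.0385 by edgeR), a 6.41-fold rise with a 95% interval of 1.84 to 22.4. The control libraries held 10 reads of Cd3d in all, against 95 in cirrhosis, and the ratio of these counts over library size was 6.44 with an exact Poisson interval of 3.35 to 13.9, which covers counting error only. Leaving out 1 rat at a time, the call was lost 7 times of 14, namely without a control (replicate 2, 3, 4 or 5) or without cirrhosis replicate 1, 3 or 4, where the log2FC lay between 2.11 and 2.96 and the adjusted p rose to at most 0.106.

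Cd3e had 0.121, 0.174, 0.244 and 0 FPM in control. The cirrhosis rats had 1.77, 1.26, 0.755, 1.18 and 0.655 FPM, each above every control. Non-overlap in this direction was found for 11.2% of all genes tested and, among the markers tested, for Cd3e alone. With eplerenone the levels were 0.716, 0.125, 0.567, 1.02 and 0.328 FPM, and replicate 2 lay in the range of control. Means were 0.135 ± 0.103 FPM (SD, n = 4), 1.13 ± 0.448 FPM (SD, n = 5) and 0.550 ± 0.344 FPM (SD, n = 5) in control, cirrhosis and cirrhosis & eplerenone. Against control the log2FC was 2.99 (standard error 0.72, adjusted p = 0.0116 by edgeR), or 7.97-fold with a 95% interval of 2.76 to 23.0. Reads numbered 9 in the 4 control libraries and 111 in the 5 of cirrhosis. Cd3e was called in each of the 14 fits that left out 1 rat, with a log2FC of 2.61 to 3.41 and an adjusted p of at most 0.0337 by edgeR.

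The coreceptor genes were not called in any comparison. Cd4 (ENSRNOG00000016294, chromosome 4) had 5.61, 7.63, 12.2 and 8.71 FPM in control, and 9.82, 22.5, 6.15, 11.4 and 8.81 FPM in cirrhosis. Cirrhosis replicate 2 stood above the other 4, which overlapped with control. With eplerenone, Cd4 had 16.9, 8.95, 22.3, 14.7 and 18.3 FPM, and 4 of the 5 rats were above every control. The mean was highest in cirrhosis & eplerenone (16.24 ± 4.94 FPM, SD, n = 5), followed by cirrhosis (11.8 ± 6.32 FPM, SD, n = 5) and control (8.53 ± 2.74 FPM, SD, n = 4), and neighbours in this order did not differ beyond their spread. The log2FC was 0.47 in cirrhosis against control (95% interval -0.28 to 1.21, adjusted p = 0.340 by edgeR) and 0.93 in cirrhosis & eplerenone against control (0.18 to 1.69, unadjusted p = 0.0188, adjusted p = 0.144 by edgeR). Of the 14 macrophage genes tested, 2 were called higher (Gpnmb, Trem2) and 3 lower (Cd14, Cd163, Msr1) in cirrhosis, against 13.4% and 6.67% of all genes tested. Their summed level ranged from 469 to 726 FPM in control, 401 to 959 FPM in cirrhosis and 398 to 881 FPM in cirrhosis & eplerenone, and their part in the level of Cd4 was not tested.

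Cd8a (ENSRNOG00000007178, chromosome 4) showed the smallest differences. It had 2.41, 1.39, 2.75 and 2.42 FPM in control, 1.5, 1.10, 2.97, 2.77 and 2.56 FPM in cirrhosis and 1.64, 1.56, 2.75, 1.52 and 3.50 FPM in cirrhosis & eplerenone. All 3 groups overlapped. The log2FC in cirrhosis against control was -0.04 with a 95% interval of -0.86 to 0.77, so neither a fall by 0.86 nor a rise by 0.77 on the log2 scale lies outside what these rats allow. Its sign depended on the scaling, with 0.24 over total counts.

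Of the B cell genes, Cd79a (ENSRNOG00000020125, chromosome 1) had 1.39, 0.752, 1.10 and 1.53 FPM in control and 2.11, 1.71, 2.32, 2.56 and 0.774 FPM in cirrhosis. Cirrhosis replicates 1 to 4 were above every control, whereas replicate 5 was among the lowest. With eplerenone it had 1.07, 0.438, 1.38, 1.64 and 1.97 FPM. The log2FC was 0.67 in cirrhosis against control (95% interval -0.28 to 1.62, adjusted p = 0.281 by edgeR). A further row of the table, Cd79al, bears a name that RefSeq lists as a synonym of Cd79a, and reads mapping to several places were counted at each, so the level of Cd79a is uncertain.

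Cd79b (ENSRNOG00000011917, chromosome 10) had 0.905, 0.0578, 0.610 and 0.954 FPM in control, where replicate 3 held 1 read. In cirrhosis the levels were 1.11, 0.612, 2.43, 2.15 and 0.833 FPM, and replicates 1, 3 and 4 lay above control. With eplerenone they were 0.256, 0.501, 1.09, 1.24 and 1.75 FPM, lowest in replicates 1 and 2. The log2FC was 1.17 in cirrhosis (95% interval -0.27 to 2.61, adjusted p = 0.217 by edgeR).

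Ms4a1 (ENSRNOG00000020945, chromosome 1) had 14, 34 and 30 reads in control, cirrhosis and cirrhosis & eplerenone, with no read in control replicate 3 and cirrhosis replicate 5. Its highest level was 0.874 FPM, in cirrhosis & eplerenone replicate 5. Without the filter on low counts its log2FC was 0.67 in cirrhosis (adjusted p = 0.672 by edgeR) and -0.13 with eplerenone (adjusted p = 0.976). No difference was detected, with few reads and levels of 0 to 0.513 FPM among the cirrhosis rats. RefSeq places a noncoding RNA over Ms4a1, and whether the counting used the strand is not stated.

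Of the cytotoxic genes, Nkg7 rose in cirrhosis and Gzmb was not called. The promoter of Nkg7 is shown because it was called, and that of Gzmb because it had the largest log2FC among the markers between the label prefixes described further on, both from RefSeq for GRCr8 at chr1:102981247-102981546 (plus strand) for Nkg7 and chr15:34462420-34462719 (minus strand) for Gzmb, each 5′ to 3′ on the strand of the gene and over the same window. Capitals mark TGTGGT or its reverse complement ACCACA, letters that RUNX factors bind, and, in Gzmb, the TATA box letters TATAAA.
Nkg7: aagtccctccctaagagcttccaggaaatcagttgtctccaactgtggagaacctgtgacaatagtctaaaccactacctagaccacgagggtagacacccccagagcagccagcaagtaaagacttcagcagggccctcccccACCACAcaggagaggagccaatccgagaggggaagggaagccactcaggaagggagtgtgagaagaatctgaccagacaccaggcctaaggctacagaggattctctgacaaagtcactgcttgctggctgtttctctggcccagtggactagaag
Gzmb: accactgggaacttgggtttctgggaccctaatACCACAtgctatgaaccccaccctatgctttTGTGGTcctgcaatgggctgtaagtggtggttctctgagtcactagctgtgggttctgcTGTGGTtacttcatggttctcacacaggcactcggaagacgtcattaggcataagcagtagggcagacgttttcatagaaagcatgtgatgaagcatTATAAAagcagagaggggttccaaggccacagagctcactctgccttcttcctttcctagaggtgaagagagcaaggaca
The RUNX letters began 106 bases before the start in Nkg7 and 217, 186 and 127 bases before it in Gzmb, and they occur in 17.3% of the 33469 promoters. TATAAA or its reverse complement occurs in 14.2% of them, and in Gzmb it began 30 bases before the start. No factor was measured on these promoters here. Cd79a and Cd8a also have an entry, and Cd79a held the ETS letters 54 bases before its start.

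Nkg7 (ENSRNOG00000017749, chromosome 1) had 1.27, 0.752, 0.977 and 0.70 FPM in control. In cirrhosis it had 4.71, 1.06, 3.61, 5.49 and 2.38 FPM, and replicate 2 alone lay in the range of control. With eplerenone it had 0.971, 0.939, 2.59, 2.60 and 3.06 FPM, with replicates 1 and 2 at the level of control and the other 3 above it. Means were 0.924 ± 0.258 FPM (SD, n = 4), 3.45 ± 1.78 FPM (SD, n = 5) and 2.03 ± 1.00 FPM (SD, n = 5) in control, cirrhosis and cirrhosis & eplerenone. In cirrhosis the log2FC of Nkg7 reached 1.89 (standard error 0.51, adjusted p = 0.0196 by edgeR), or 3.71-fold with a 95% interval of 1.75 to 7.85. The call was lost without control replicate 3 (adjusted p = 0.0587 by edgeR) or control replicate 5 (adjusted p = 0.0646), with log2FC of 1.80 and 1.78.

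Gzmb (ENSRNOG00000045973, chromosome 15) had 0.543, 0.289, 0.794 and 0.318 FPM in control, 0.111, 0, 0.162, 0.308 and 0.417 FPM in cirrhosis and 0, 0, 0.405, 0.790 and 0.71 FPM in cirrhosis & eplerenone. Reads numbered 32, 18 and 37 in the 3 groups. The groups overlapped, and the log2FC in cirrhosis was -1.29 with a 95% interval of -3.41 to 0.82 (adjusted p = 0.348 by edgeR). Gzmb belongs to a family of granzyme genes with close copies in the rat, so reads may be shared with them. The row Gzmbl2, a related granzyme, had means of 0.591, 0.570 and 0.784 FPM in control, cirrhosis and cirrhosis & eplerenone.

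**Figure D2:**
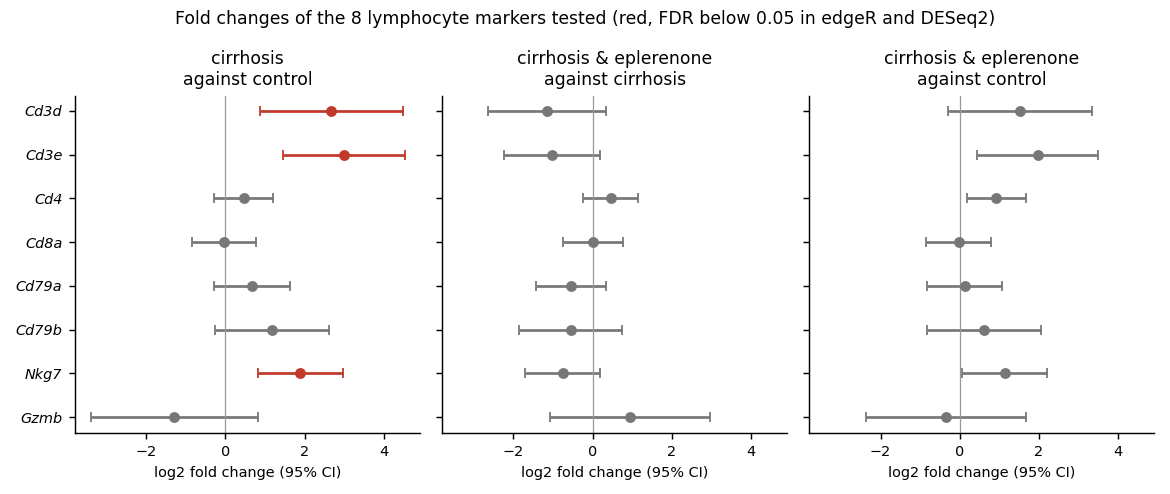
Log2 fold change (log2FC) with its 95% interval from edgeR for the 8 lymphocyte markers tested in the 3 comparisons; a line marks 0 and red marks genes called by edgeR and DESeq2. Cd3d (2.68), Cd3e (2.99) and Nkg7 (1.89) are red in cirrhosis against control, and no marker is red in the other panels.

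The question whether eplerenone altered these markers in cirrhotic liver was addressed by cirrhosis & eplerenone against cirrhosis. The mean was lower with eplerenone for Cd3d, Cd3e, Cd79a, Cd79b and Nkg7 and higher for Cd4, Cd8a and Gzmb, with the sign changing with the scaling for Cd8a and with the label prefix as a term for Gzmb and Cd8a. None was called, and 0 of 8 had an unadjusted p under 0.05 by edgeR or an FDR below 0.05 by DESeq2. The log2FC was -1.15 for Cd3d (95% interval -2.63 to 0.33) and -1.02 for Cd3e (-2.24 to 0.20). For Nkg7 it was -0.76 (-1.71 to 0.19), so these rats allow anything from a 0.306-fold to a 1.14-fold level. Cd79a had -0.54 (-1.42 to 0.34), Cd79b -0.55 (-1.86 to 0.75) and Cd4 0.47 (-0.23 to 1.16). For Cd8a the value was 0.02 (-0.75 to 0.78) and for Gzmb 0.95 (-1.07 to 2.97). Adjusted p-values of the 8 genes by edgeR lay between 0.396 and 0.987. Without cirrhosis replicate 5 and cirrhosis & eplerenone replicate 3, the comparison called 1289 of 14417 genes tested, against 2 with all rats, and again none of the markers. These rats had the lowest T cell sum in cirrhosis (29.1 FPM) and the highest in cirrhosis & eplerenone (50.8 FPM). Leaving them out thus sets the groups further apart, so the rise in calls carries no weight as a test.

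Against control, which these rats share with the cirrhosis comparison, cirrhosis & eplerenone rats had a log2FC of 1.98 for Cd3e (95% interval 0.44 to 3.51, unadjusted p = 0.0148, adjusted p = 0.129 by edgeR). Cd3d had 1.53 (-0.29 to 3.35) and Nkg7 1.13 (0.07 to 2.20, unadjusted p = 0.0386, adjusted p = 0.211 by edgeR). Cd79a had 0.13, Cd79b 0.62, Cd8a -0.03 and Gzmb -0.34. Of the 8 markers, 3 had an unadjusted p under 0.05 (Cd3e, Cd4 and Nkg7), which 20.5% of all genes tested had, and 0 were called by edgeR or by DESeq2. For Cd3d, Cd3e and Nkg7 the mean of cirrhosis & eplerenone thus lay between those of control and cirrhosis, and it was separable from neither after adjustment.

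Animal labels of CCl4-treated rats begin with 15 (cirrhosis replicates 1 to 3, cirrhosis & eplerenone replicates 1 and 2) or 20 (cirrhosis replicates 4 and 5, cirrhosis & eplerenone replicates 3 to 5), and what this prefix stands for is not stated. Control rats have the prefixes 13 and 16, so for these comparisons prefix and CCl4 cannot be told apart. Gzmb lay between 0 and 0.162 FPM in the 5 rats of prefix 15, with 5 reads in all, and between 0.308 and 0.790 FPM in the 5 rats of prefix 20, with 50 reads. The 2 sets of rats did not overlap, but how many of all genes tested separate in this way was not counted. The ratio of counts over library size was 9.96 with an exact Poisson interval of 4.0 to 32 for counting error only. By edgeR the difference had an unadjusted p of 0.00248 and an adjusted p of 0.189 over all genes tested, and it was chosen after its values were seen. In that comparison 0.25% of all genes tested had an FDR below 0.05 by edgeR, and no marker did.

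Within prefix 15, all 8 markers tested had lower fitted levels with eplerenone (2 rats) than without (3 rats), and the median log2FC was -1.52 against -0.01 over all genes tested. Gzmb had no read in both rats with eplerenone there and at most 0.162 FPM in the others, near the floor, and without it the median was -1.48, the value of Cd3d. Nkg7 had -1.73 (unadjusted p = 0.0248, adjusted p = 0.142 by edgeR) and Cd79b -1.89 (unadjusted p = 0.0387, adjusted p = 0.169 by edgeR). Within prefix 20 (3 rats with and 2 without eplerenone), 5 markers were lower and 3 higher, with a median of -0.01, and Nkg7 had -0.50 and Cd79b -0.13. FDR below 0.05 by edgeR was reached by 0.16% of all genes tested within prefix 15 and by 0% within prefix 20, and by no marker in either, while an unadjusted p under 0.05 was found for 26.5% and 1.19% of all genes tested. The difference between the prefixes was tested itself and had an FDR below 0.05 for 0% of genes (12.1% at an unadjusted p under 0.05). For the markers its adjusted p was at least 0.430 by edgeR.

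**Figure D3:**
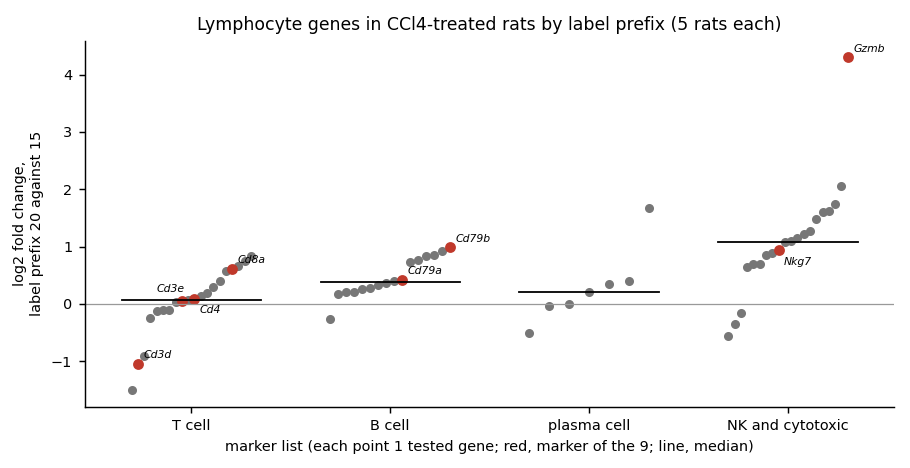
Log2 fold change (log2FC) between CCl4-treated rats of label prefix 20 and of prefix 15 (5 rats each) for every tested gene of 4 lymphocyte lists; each point is 1 gene, red points are the named markers and lines are list medians. Values average the differences with and without eplerenone. Gzmb is highest at 4.30, but prefix 15 held 5 reads of it and none with eplerenone. Its size is thus set near the floor, and its counts over library size differed 9.96-fold. The NK and cytotoxic list has a median of 1.09 against 0.08 for T cell genes and 0.38 for B cell genes.

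The same lists of T cell, B cell, plasma cell and NK and cytotoxic genes hold 82 genes with the markers among them, of which 63 were tested. In cirrhosis against control 18 of the 63 were called higher and 0 lower, with a median log2FC of 1.07, against 13.4% of all genes tested called higher, 6.67% called lower and a median of -0.01. Without the markers there were 15 of 55. By list, 11 of 20 T cell genes were called higher, with a median of 1.41, 3 of 16 B cell genes with 1.17, 1 of 7 plasma cell genes with 0.58 and 3 of 20 NK and cytotoxic genes with 0.65. The shares of the B cell list (18.8%), the plasma cell list (14.3%) and the NK and cytotoxic list (15%) were near that of all genes tested. Without control replicate 5 the 18 genes became 8, without control replicate 3 or cirrhosis replicate 3 they became 10, and without control replicate 2 or 4 they became 11. Without cirrhosis replicate 5 they were 20. Calls over all genes tested moved in the same way. From 2898 with all rats they fell to 1356 without control replicate 5 and to 1553 without control replicate 3. Without cirrhosis replicate 5 there were 4602.

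Among T cell genes, those of the antigen receptor and its signal rose together. Besides Cd3d and Cd3e these were Cd3g (log2FC 2.39), the kinases Lck (1.40) and Zap70 (1.88), and the adaptor Lat (1.41). The adhesion molecule Cd2 rose by 3.13 (standard error 0.54, adjusted p = 0.00204 by edgeR), from 0.245 ± 0.0926 FPM (SD, n = 4) to 2.18 ± 1.20 FPM (SD, n = 5), and remained higher than control with eplerenone (2.03, adjusted p = 0.0380 by edgeR). Cd5 and Cd6, receptors that dampen T cell signals, rose by 2.23 and 2.89. Ctla4, an inhibitory receptor, had reads in 1 of 4 control libraries and a log2FC of 3.12 (adjusted p = 0.0404 by edgeR). Pdcd1, which encodes the inhibitory receptor PD-1, had no read in any control. In cirrhosis it ranged from 0.0595 FPM (replicate 5, 1 read) to 1.73 FPM. Its mean there, 0.840 FPM, was at least 4.40-fold the highest level that 3 counts allow in a control library. Placing Pdcd1 at this bound left the T cell median at 1.41. Icos, a costimulator, and Tcf7, a transcription factor of resting T cells, were not called (-0.42 and -0.40).

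Of the B cell list, the adaptor Blnk had the largest rise (log2FC 4.16, standard error 0.63, adjusted p = 0.00116 by edgeR). It went from 0.379 ± 0.0872 FPM (SD, n = 4) in control to 6.88 ± 4.98 FPM (SD, n = 5) in cirrhosis. With eplerenone Blnk had 3.98 ± 1.95 FPM (SD, n = 5) and was also called against control (3.38, adjusted p = 0.00781 by edgeR). Cd37, a tetraspanin of leukocytes, rose by 2.10 in cirrhosis and by 1.60 in cirrhosis & eplerenone, and the Fc receptor-like gene Fcrla by 1.91 in cirrhosis. Cd22, an inhibitory B cell receptor, had -0.51 and was not called. Of the 16 B cell genes tested, 12 had higher and 4 lower fitted levels in cirrhosis, the lowest at -1.21, and 3 were called. The plasma cell list gave Fkbp11 (0.58), a chaperone of secretory cells, in cirrhosis and Sdc1 (-0.82), which hepatocytes also make, in cirrhosis & eplerenone against control.

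Apart from Nkg7, the NK and cytotoxic genes called in cirrhosis were Ctsw, a protease of cytotoxic cells (3.27, adjusted p = 0.0118 by edgeR), and Cst7, an inhibitor of such proteases (2.97, adjusted p = 0.0307 by edgeR). The granzyme genes Gzma, Gzmk and Gzmm had log2FC of -1.5, 2.26 and 1.47, with adjusted p of 0.0773, 0.0747 and 0.0899 by edgeR. Perforin (Prf1), which opens the target membrane, had 0.22. By label prefix, 17 of the 20 genes were higher in prefix 20 than in prefix 15 and 10 had an unadjusted p under 0.05, all of them higher, against 6.6% of all genes tested in either direction. The lowest adjusted p among them was 0.115 by edgeR, for Prf1 (1.62). These values average the differences with and without eplerenone. Without it, summed levels of the list (25 genes) overlapped. They were 41.8 to 55.1 FPM in prefix 15 and 37.6 and 68.9 FPM in prefix 20. With it, they were 24.2 and 19.3 FPM in prefix 15 and 48.8 to 61.4 FPM in prefix 20. The median log2FC with eplerenone was -1.44 within prefix 15 (19 of 20 lower) and 0.25 within prefix 20 (6 lower). The difference between these had an adjusted p of at least 0.37 by edgeR.

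**Figure D4:**
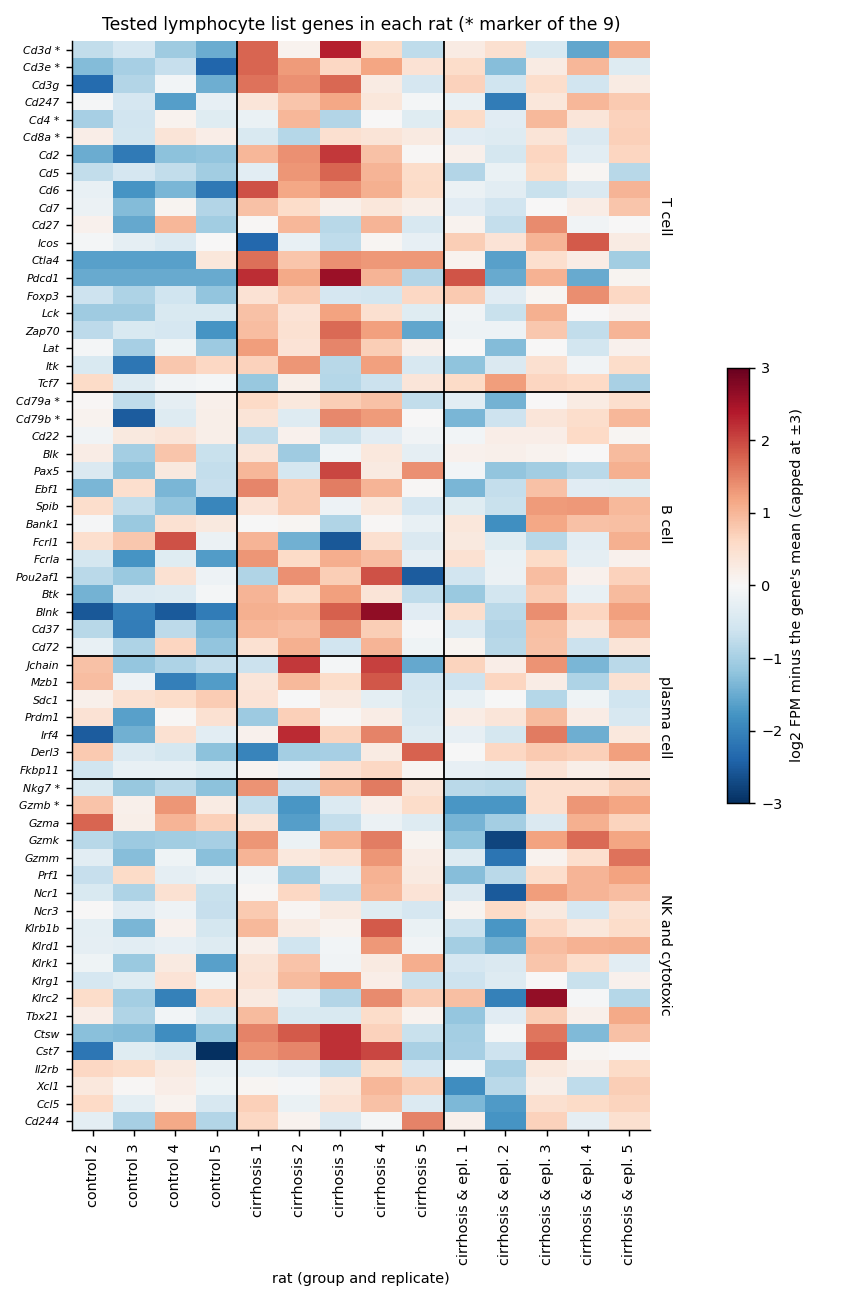
Log2 FPM minus the mean of each gene over 14 rats for the tested genes of 4 lymphocyte lists (rows, markers starred, 1 gene not shown) in each rat (columns); red is above and blue below the mean, capped at ±3. Cirrhosis replicates 1 to 4 are mostly red for T cell genes, controls mostly blue, and in cirrhosis & eplerenone replicates 1 and 2 most NK and cytotoxic genes are blue.

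With eplerenone against cirrhosis, 0 of the 63 genes were called in either direction, 42 had lower and 21 higher fitted levels, the median was -0.44, and 8 had an unadjusted p under 0.05 by edgeR, which 14.4% of all genes tested had. For T cell genes 15 of 20 were lower with a median of -0.69. Without cirrhosis replicate 5 and cirrhosis & eplerenone replicate 3, 4 of the 63 genes were called (Cst7, Ctsw, Klrg1 and Lat). This was no higher a share than the 1289 of 14417 over all genes tested. Against control 3 genes of the lists were called higher in cirrhosis & eplerenone (Cd2, Blnk and Cd37) and 1 lower (Sdc1), near the shares of 4.33% and 0.874% over all genes tested. These 4 became 1 (Blnk) without any one of the controls, cirrhosis replicate 2 or cirrhosis & eplerenone replicate 3 or 5, and 2 without cirrhosis replicate 1 or cirrhosis & eplerenone replicate 1 or 4, while there were 6 without cirrhosis & eplerenone replicate 2. Over all genes tested, the 750 calls became 216 to 429 without 1 of the controls and 1272 without cirrhosis & eplerenone replicate 2. The median of T cell genes in cirrhosis & eplerenone against control was 1.12, or 0.95 with Pdcd1 at its bound.

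Of 9 tested genes that guide lymphocytes in tissue, 3 were called higher in cirrhosis and 1 lower, against 13.4% and 6.67% of all genes tested. The chemokine gene Ccl21, which attracts T cells and dendritic cells through the receptor CCR7, had 10.4, 3.87, 9.34 and 4.07 FPM in control and 369, 250, 566, 383 and 31.5 FPM in cirrhosis. Every cirrhosis rat lay above every control, replicate 5 least, as for 11.2% of all genes tested. The log2FC was 5.53 (standard error 1.01, adjusted p = 0.00279 by edgeR). With eplerenone it had 83.3, 14.6, 378, 31.5 and 213 FPM, and it was called against control (4.38) but not against cirrhosis (-1.15). Ccl19, which uses the same receptor, rose by 3.54, and the lymphotoxin gene Ltb by 2.78. S1pr1, a receptor by which lymphocytes leave tissue and which endothelial cells also make, fell by 1.68 on the log2 scale in cirrhosis and by 1.80 in cirrhosis & eplerenone.

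**Figure D5:**
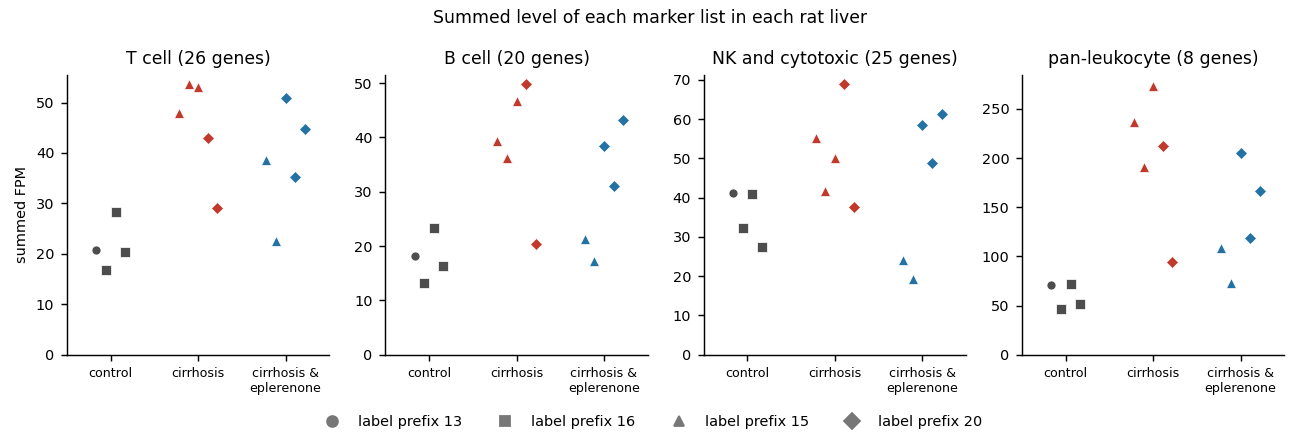
Summed FPM of the T cell (26 genes), B cell (20), NK and cytotoxic (25) and pan-leukocyte (8) lists in each rat, with linear axes from 0 and the point shape giving the label prefix. Every cirrhosis rat lies above every control for T cell genes (29.1 to 53.7 against 16.7 to 28.2 FPM), by a narrow margin. Cd4, which macrophages also make, held 8.81 of the 29.1 FPM (cirrhosis replicate 5) and 12.2 of the 28.2 FPM (control replicate 4). The sums are not corrected for gene length, and how often other sums separate in this way was not counted. Cirrhosis & eplerenone replicates 1 and 2 have the lowest NK and cytotoxic sums (24.2 and 19.3 FPM).

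Genes of other cell types were also called in cirrhosis against control, where 13.4% of all genes tested were called higher and 6.67% lower. The leukocyte gene Ptprc (CD45) had 7.82 ± 3.06 FPM (SD, n = 4), 15.8 ± 2.05 FPM (SD, n = 5) and 15.7 ± 6.56 FPM (SD, n = 5) in control, cirrhosis and cirrhosis & eplerenone, with a log2FC of 1.01 in cirrhosis (adjusted p = 0.0277 by edgeR). Of the pan-leukocyte list 6 of 8 genes were called higher, and its sum ranged from 46.3 to 71.8 FPM in control, 93.9 to 274 FPM in cirrhosis and 72.9 to 205 FPM in cirrhosis & eplerenone. Called higher were also 6 of 7 granulocyte and mast cell genes, 5 of 5 cholangiocyte genes, 4 of 6 stellate and myofibroblast genes, 2 of 6 dendritic cell genes and 5 of 5 proliferation genes. Of 8 hepatocyte genes 0 were called higher and 1 (Hnf4a) lower, and their sum ranged from 180140 to 209160 FPM in control and from 140360 to 196000 FPM in cirrhosis. Of 5 endothelial genes 1 was called in each direction, so the calls of the hepatocyte and endothelial lists are single genes. The part of these cell types in the levels of the lymphocyte markers was not tested. Their median log2FC was 1.59 for the pan-leukocyte list, 3.8 for granulocytes and mast cells, 0.63 for dendritic cells, 0.45 for macrophages, 1.55 for stellate cells, 2.90 for cholangiocytes, 2.85 for proliferation, -0.57 for hepatocytes and -0.49 for endothelium.

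Genes whose profile over the 14 rats was most like that of a marker were found by the mean absolute difference of centred log2 FPM among 12231 genes. For Nkg7 they were Aif1 (0.262), Fcer1g (0.304) and Inpp1 (0.316), against a median of 0.911 over those genes. For Cd3d they included Aldoc and Nrgn (0.388 and 0.425, median 1.01) and for Cd3e Prnp, Arl4d and Gbp5 (0.388 to 0.429, median 1.06). Cd4 was nearest to Prex1, Wls and Col4a2 (0.262 to 0.274, median 0.651) and Cd8a to Trmo, Dcaf15 and Sac3d1 (0.254 to 0.259, median 0.553). Cd79a was nearest to Nagk, Endov and Ost4 (0.227 to 0.260, median 0.644) and Cd79b to Phldb3, Art2b and Egr1 (0.395 to 0.451, median 0.866). For Gzmb they were Lyc2, Gzmbl2 and Glipr1l2 (0.434 to 0.496, median 0.987), of which Gzmbl2 may share reads with it. These distances describe 14 libraries and carry no test.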

How the data were processed

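The authors enriched poly(A) RNA, mapped the reads to rn6 with HISAT2 2.1.0 and counted them per gene with featureCounts, a read with several mapping places adding to each of them. They deposited raw counts per gene, without normalization or filter,. The 14 samples with a column were analysed, and control replicate 1 was not analysed here. Whether the strand was used is not given in the sources used here.

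Here filterByExpr of edgeR 4.0.16 (smallest count 10, R 4.3.3) kept 14417 of 32623 genes. Library sizes of 16157491 to 21574767 counts were scaled by TMM. Groups were those of the labels, fitted in 1 model with edgeR's quasi-likelihood test and 1 with DESeq2 1.42.0 (Wald test), with Benjamini-Hochberg adjustment over all genes tested. Steps were tested on simulated data. Lists came from general knowledge, and the markers and lists were chosen with earlier results of these data known. Named were the markers, from the T cell, B cell, plasma cell, NK and homing lists up to 4 called genes per comparison with the largest absolute log2FC and at least 0.5 FPM in a group, Ptprc, the 3 genes nearest to each marker and, in other lists, genes called with eplerenone and the gene with the highest FPM, whose values are left out of the text where FPM would rank genes of unequal length. Other T, B and NK genes, Cd79al and Gzmbl2 were named after their values were seen. Centred log2 FPM used a prior count of 2 and genes of at least 0.5 FPM. Alternatives changed the tool, scaling, filter, biotype, samples and terms, and each sample was left out in turn. A gene of the B cell list and a gene near Cd3d are not reported here by name. Promoters are RefSeq's, with 6 of 9 markers matched.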

Additional observations from a re-analysis of the deposited data

How the results depend on the processing

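Of 545 alternative values for the log2FC of the markers tested, 510 kept their direction and their side of the threshold, 11 lost a call, 0 gained one and 24 changed sign. Cd3e kept its call in cirrhosis under each of the 22 alternatives run for it. Requiring at least 10 counts in every sample left 3 markers (Cd4, Cd8a and Nkg7) and 1 called in cirrhosis, with 5 genes of the lymphocyte lists called in cirrhosis and 1 in cirrhosis & eplerenone against control, since fewer genes are tested. Leaving out each sample in turn gave 1 to 3 markers called in cirrhosis, and of the lymphocyte lists 8 to 20 genes in cirrhosis and 1 to 6 in cirrhosis & eplerenone against control (4 with all samples). Over all genes tested these fits called 1356 to 4602 in cirrhosis. The count of list genes in cirrhosis & eplerenone against control was 2 with no filter on low counts. It was 1 with 4 samples per group, the fit without cirrhosis replicate 5 and cirrhosis & eplerenone replicate 3. That fit called 4 genes of the lists between cirrhosis & eplerenone and cirrhosis, beside 1289 of 14417 genes tested, and its choice of rats sets these groups further apart. With the replicate number of the titles as a replicate block, 1 marker (Cd3e), 11 genes of the lists in cirrhosis and 1 in cirrhosis & eplerenone against control were called. Same-numbered rats of different groups correlated between -0.333 and 0.187. That the number pairs rats is not stated. Without the correlations of differently numbered rats, these values cannot settle it.

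Signs changed for Cd8a, Cd79a and Gzmb. Gzmb in cirrhosis & eplerenone against cirrhosis went from 0.95 to -0.087 with the label prefix as a term. For Cd8a, cirrhosis against control was 0.24 over total counts, 0.011 with at least 10 counts in every sample and -0.22 to 0.13 with each sample left out in turn. Cirrhosis & eplerenone against cirrhosis was -0.00104 with DESeq2 size factors, -0.032 with 4 samples per group, -0.13 with the label prefix as a term and -0.21 to 0.15 with samples left out. Cirrhosis & eplerenone against control was 0.31, 0.022 and -0.25 to 0.090 in the order of the first comparison. With samples left out, cirrhosis & eplerenone against control gave -0.066 to 0.34 for Cd79a and -0.76 to 0.0058 for Gzmb. The cause of these changes was not tested.

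Over total counts the median of all genes shifted to 0.28 in cirrhosis and 0.32 in cirrhosis & eplerenone against control, and the share of calls that were higher rose from 66.8% to 89.5% and from 83.2% to 95%. It was 56.8% in cirrhosis with 4 samples per group. At 1 to 4 reads per control library for Cd3d and 0 to 4 for Cd3e, the intervals of their fold changes are wide.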

Other observations

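Immunoglobulin heavy chain genes, made by B cells and plasma cells, stood outside the lists and were looked at after their values were seen. Ighm, the gene of the IgM heavy chain, had 195, 49.1, 48.4 and 58.9 FPM in control replicates 2 to 5. In cirrhosis replicates 1 to 5 it had 205, 394, 350, 590 and 39.8 FPM, and replicate 5 lay below every control. With eplerenone it had 151, 91.9, 237, 34.8 and 91.2 FPM. The log2FC of Ighm was 1.85 in cirrhosis (adjusted p = 0.0631 by edgeR, 0.0114 by DESeq2) and -1.38 with eplerenone against cirrhosis (adjusted p = 0.330 by edgeR). The row Igh.6 was called higher in cirrhosis (2.92, adjusted p = 0.0166 by edgeR), with 70.1 FPM in cirrhosis replicate 3 against 2.32 to 13.8 FPM in the other 4. Ighg1 had a log2FC of 2.24 in cirrhosis (adjusted p = 0.101 by edgeR). Constant regions share sequence with one another, and reads mapping to several places were counted at each, so these levels are uncertain.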
